A study of Peromyscus maniculatus and Peromyscus polionotus and Peromyscus maniculatus x Peromyscus polionotus with 18 samples.

Results

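Axon guidance ligands and receptors were followed across the brains of burrowing mice. The genes were taken by symbol: semaphorins of classes 3 to 7 with their plexin and neuropilin receptors, ephrins with their Eph receptors, Slits with their Robo receptors, and netrins with the receptors Dcc and Unc5. Of 20731 genes with a name in the table of the parental species, 69 belonged to these families, 35 ligands and 34 receptors. The table of the F1 hybrids held 54 of them among 11928 genes.

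The series measured whole-brain mRNA of adult males of Peromyscus polionotus, the oldfield mouse, which digs long burrows, of Peromyscus maniculatus, the deer mouse, which digs short ones, and of their F1 hybrids, labelled as maniculatus by polionotus. The sources used here do not say which species the mothers were. Animals were killed when a burrowing trial in large enclosures filled with sand, or a control trial, had ended, so that 6 groups of 3 libraries (18 in all) were compared: P. polionotus after burrowing and after control, P. maniculatus after burrowing and after control, and F1 hybrids after burrowing and after control. The labels name no drug and no transgene for any group. All animals were about 50 to 80 days old and had been tested 2 times before in such enclosures. Each library was treated as 1 animal, and p-values measure the spread between these animals. In whole-brain RNA, fewer cells of a type and less RNA per cell cannot be told apart.

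Guidance molecules steer growing axons. Semaphorins signal through plexins, and most class 3 members also need a neuropilin. Ephrins sit on membranes and signal to Eph receptors on the next cell, and can signal backwards into their own cell. Slits repel axons through Robo receptors at the midline. Netrins attract through Dcc and repel through Unc5 receptors. In the adult brain many of these proteins remain at synapses, in glia and in blood vessels, where they act on spines, plasticity and vessel growth.

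The parental libraries were deposited as TPM, relative transcript abundances that are set per transcript length and keep no depth. The sources used here give no genome build, TPM method or rule for assigning reads to an allele, so that unequal mapping of the species' reads could not be assessed for any TPM difference or allele ratio. The hybrid libraries were deposited as counts assigned to the polionotus or the maniculatus allele, with 11415175 to 53906964 counts per animal, and 52.6% to 53.1% of these belonged to the polionotus allele. A member had a median of 497 counts in the shallowest F1 animal (control replicate 1) and 3118 in the deepest (control replicate 3). On the second principal component, polionotus burrowing replicate 3, polionotus control replicate 2 and maniculatus control replicate 3 lay apart from the other parental libraries. Polionotus control replicates 2 and 3 were low in hindbrain and spinal cord marker genes, with list means of 0.63 and 1.21 on the log2(TPM + 1) scale, against 1.66 to 2.16 in the other 10 libraries.

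Most of these genes were expressed in the adult brain. A mean of at least 1 TPM over the 12 parental libraries was reached by 59 members, at least 5 TPM by 39 and at least 50 TPM by 8. Ephrin-B3 (Efnb3), a membrane ligand known in mice as a midline barrier for corticospinal axons, had the highest level, with 275 ± 12.1 TPM in P. polionotus, against 162 ± 8.99 TPM in P. maniculatus (mean ± SD over 6 libraries, as for all such species values). In other families the members with the highest level per transcript length were Sema7a, Epha8, Robo3, Slit1 and Nrp2, given with the species comparison, and 6 that did not pass the species test or passed it weakly. Plxnb3, a plexin, had a lowest, median and highest level of 69.4, 81.4 and 97.4 TPM in P. polionotus, against 59.8, 68.7 and 90.7 TPM in P. maniculatus. Efna3, an A ephrin, had 74.7, 78.7 and 85.0 TPM in P. polionotus, against 64.1, 75.1 and 79.2 TPM in P. maniculatus. Ephb6, an Eph receptor without kinase activity, averaged 75.2 ± 7.66 TPM in P. polionotus, against 75.1 ± 8.16 TPM in P. maniculatus. The ranges overlapped in all 3 genes. Unc5a averaged 27.8 ± 2.20 TPM in P. polionotus, against 24.5 ± 1.67 TPM in P. maniculatus. Sema3f averaged 8.39 ± 0.652 TPM in P. polionotus, against 9.52 ± 0.881 TPM in P. maniculatus, and Ntn3 had a median of 9.78 TPM in P. polionotus, against 10.8 TPM in P. maniculatus. These levels overlapped as well. Dcc, Epha2, Epha3, Epha6, Ephb1, Ntn5, Sema3a, Sema3c, Sema3d and Unc5d stayed under a mean of 1 TPM and were not tested between the species. Among these 10, all 6 polionotus libraries lay above all 6 maniculatus libraries for Sema3d and Unc5d and below them for Sema3c. The share of other genes under 1 TPM that separated in this way was not counted. Ntn5 was listed at 0 in all 6 maniculatus libraries and at 0 to 0.437 TPM in P. polionotus.

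The species comparison asks whether guidance genes are expressed at other levels in the brain of the long-burrow species. Of 59 tested members, 25 (42.4%) passed limma's test at a Benjamini-Hochberg adjusted p of 0.05, 19 higher and 6 lower in P. polionotus. Over all 14366 tested genes the share was 52.4%, with 32.6% higher and 19.8% lower. The median log2 fold change of the members was 0.09 on the log2(TPM + 1) scale, against 0.06 for all genes, and the median size was 0.16 against 0.19. In this fit the share called was lower among the members than over all genes, a gap that was not tested. It moved with the scaling, since 29 of 59 members were called with quantile normalization and 29 with median scaling. For 14 members the libraries of the 2 species did not overlap at all, 10 with P. polionotus above and 4 below, where 32.8% of all genes showed such separation (20.8% with P. polionotus above and 12% below). The balance of directions moved with the scaling, to 18 higher and 11 lower with quantile normalization and to 17 and 12 with median scaling. Median scaling shifts every gene of a library by the same amount, and counts over all genes are not given for these scalings. Both scalings moved all members downward by similar amounts, and the signs of Efna2, Epha7, Ephb6, Robo1, Sema4a and Sema4b, none of them called, turned under both, that of Epha1 under median scaling.

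**Figure D1:**
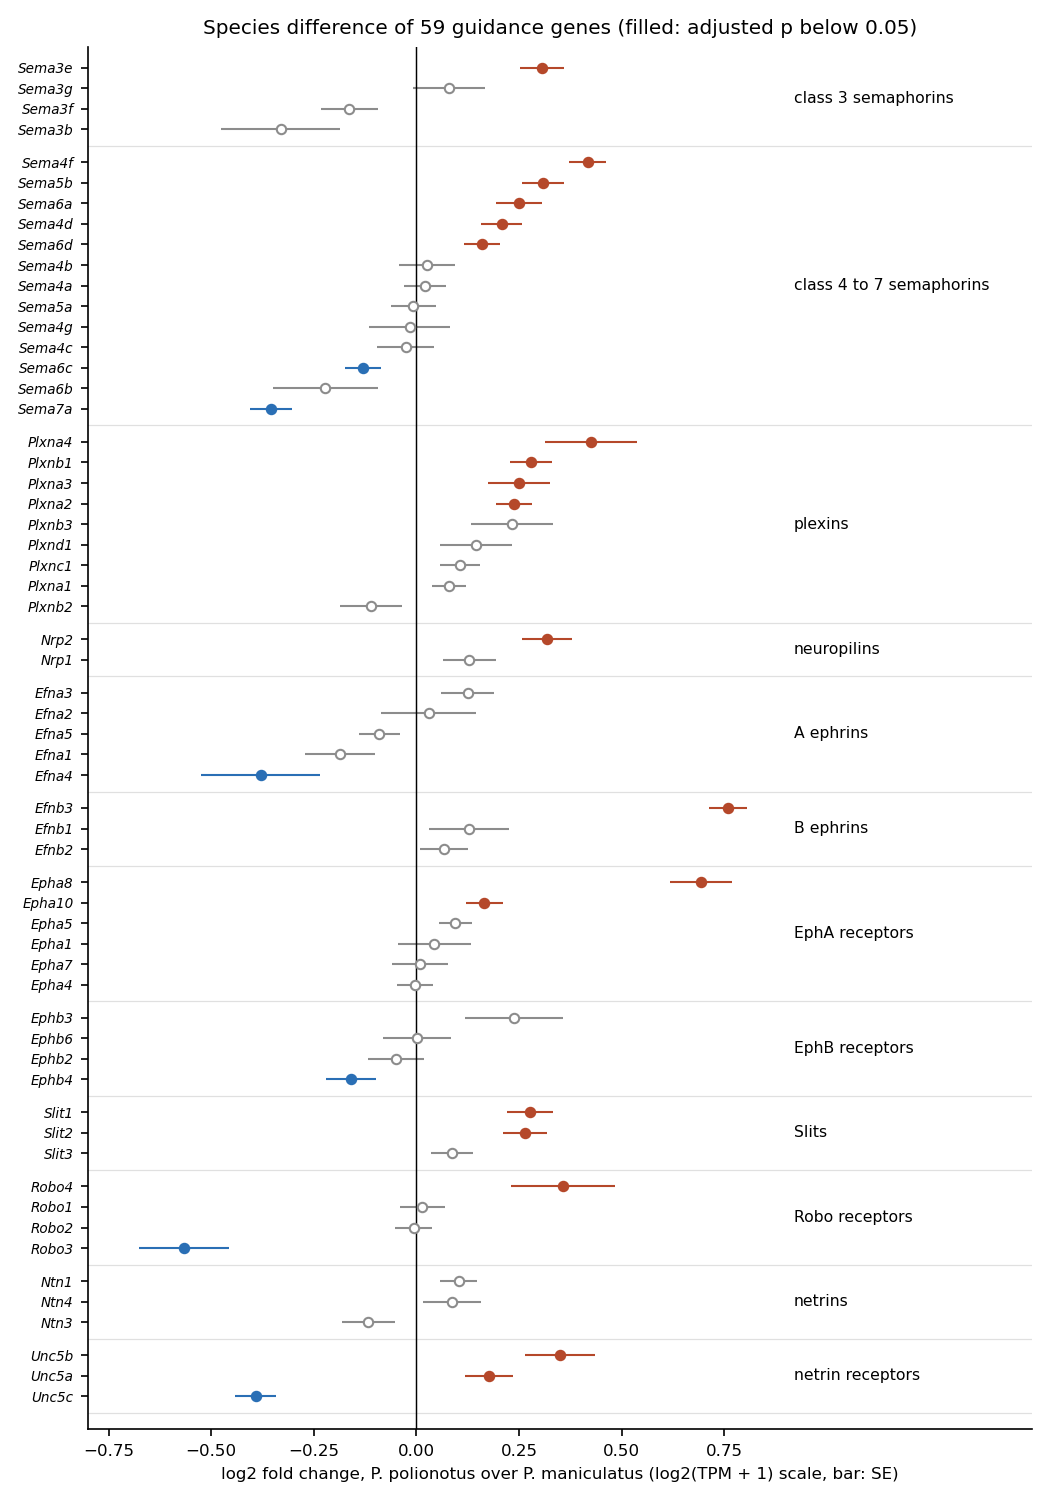
Species difference of the 59 tested guidance genes by family. The x axis gives the log2 fold change of P. polionotus over P. maniculatus on the log2(TPM + 1) scale with its SE as a bar, and filled points passed limma's test at an adjusted p of 0.05. Efnb3 and Epha8 lie farthest to the right at 0.76 and 0.69, Robo3 farthest to the left at -0.57, and 8 of 9 plexins lie right of 0.

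Among ligands, Efnb3 showed the clearest difference. Its libraries had a lowest, median and highest level of 262, 273 and 295 TPM in P. polionotus, against 150, 162 and 173 TPM in P. maniculatus. The ranges were far apart, and the log2 fold change was 0.76 (SE 0.05, limma adjusted p = 3.57e-07). The other B ephrins did not pass, with log2 fold changes of 0.13 for Efnb1 and 0.07 for Efnb2. Of the 5 A ephrins, which are held in the membrane by a lipid anchor, Efna4 was called lower (-0.38, adjusted p = 0.046), a call that was lost in 14 of 22 alternative settings.

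The semaphorins of classes 4 to 7, most of which are membrane-bound, went in both directions, with 5 called higher and 2 called lower of 13. That is 53.8%, beside 52.4% of all genes. Sema4f had 17.6, 18.6 and 20.2 TPM (lowest, median, highest) in P. polionotus, against 13.1, 13.8 and 14.2 TPM in P. maniculatus, with no overlap (0.42, SE 0.05, adjusted p = 2.56e-05). Sema6a, a ligand of the plexins Plxna2 and Plxna4, had 4.66, 5.04 and 5.40 TPM in P. polionotus, against 3.45, 4.11 and 4.64 TPM in P. maniculatus (difference 0.25, SE 0.06, adjusted p = 0.00368). Here the ranges almost touched. Sema5b (0.31), Sema4d (0.21) and Sema6d (0.16) were the other called genes on this side.

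Sema7a, a lipid-anchored semaphorin that promotes axon growth through integrins, ran the other way. It had 69.6, 81.1 and 86.3 TPM in P. polionotus, against 97.0, 103 and 105 TPM in P. maniculatus (difference -0.35, SE 0.05, adjusted p = 2.06e-04). All 6 polionotus libraries lay below the lowest maniculatus library. Sema6c was lower by a small margin, with 14.5, 16.0 and 16.4 TPM in P. polionotus against 16.5, 17.5 and 18.2 TPM in P. maniculatus (difference -0.13, SE 0.04, adjusted p = 0.0251), and lost its call in 5 of 23 alternatives.

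Of the 4 secreted class 3 semaphorins tested, Sema3e, the ligand of Plxnd1, was higher (2.75 ± 0.238 TPM in P. polionotus, 2.04 ± 0.146 TPM in P. maniculatus; 0.31, SE 0.05, adjusted p = 7.48e-04). Sema3b (-0.33), Sema3f (-0.16) and Sema3g (0.08) did not pass. Slit1 and Slit2 were both higher and Slit3 did not pass (0.09). Slit1 had 8.00, 8.55 and 9.24 TPM in P. polionotus, against 6.37, 6.82 and 8.03 TPM in P. maniculatus, where burrowing replicate 2 alone reached the polionotus range (0.28, SE 0.06, adjusted p = 0.00185). Slit2 stood at 1.44 ± 0.139 TPM in P. polionotus, against 1.03 ± 0.0687 TPM in P. maniculatus (difference 0.27, SE 0.05, adjusted p = 0.00182). None of the 3 netrins tested passed, with log2 fold changes from -0.12 (Ntn3) to 0.10 (Ntn1).

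**Figure D2:**
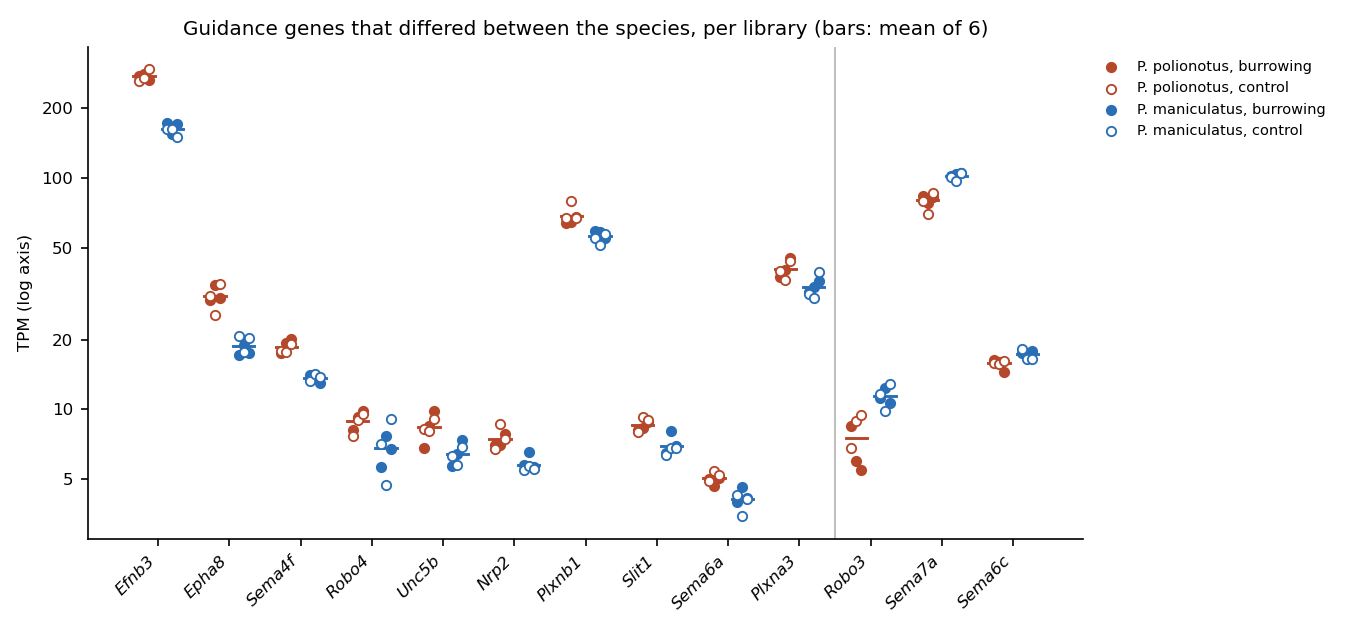
TPM per parental library (log axis) for the called guidance genes of at least 5 TPM with the largest species differences. Each gene has its 6 polionotus libraries on the left and its 6 maniculatus libraries on the right, filled points are burrowing and open points control animals, and bars are species means. Efnb3, Epha8 and Sema4f are fully separated, while Robo4 and Plxna3 overlap.

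On the receptor side, Epha8 led. It had 25.7, 30.7 and 34.9 TPM in P. polionotus, against 17.3, 18.3 and 20.8 TPM in P. maniculatus, with no overlap (0.69, SE 0.08, adjusted p = 2.46e-05). Epha10, another Eph receptor without kinase activity, was higher by 0.17 (SE 0.04, adjusted p = 0.0097). The other 4 EphA receptors tested lay within 0.10 of 0. Of 4 EphB receptors only Ephb4, a receptor of venous endothelium, was called (-0.16, adjusted p = 0.0494), and that call was lost in 14 of 22 alternatives.

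Of 9 plexins 4 were called higher and 0 lower, which is 44.4% beside 52.4% of all genes. With median scaling 1 of the 9 was called lower. Plxnb1, a receptor for Sema4d, had 63.6, 67.1 and 79.5 TPM in P. polionotus, against 51.2, 56.2 and 58.9 TPM in P. maniculatus (difference 0.28, SE 0.05, adjusted p = 0.00102). Plxna3, which together with neuropilin-2 receives Sema3f in mice, had 36.3, 39.8 and 45.3 TPM in P. polionotus, against 30.4, 33.0 and 39.3 TPM in P. maniculatus (difference 0.25, SE 0.08, adjusted p = 0.017). The Plxnb1 ranges were separate and the Plxna3 ranges overlapped. Plxna4 (0.43, adjusted p = 0.00863) and Plxna2 (0.24, adjusted p = 9.74e-04) also passed. Neuropilin-2 (Nrp2) had 6.71, 7.22 and 8.61 TPM in P. polionotus, against 5.45, 5.67 and 6.51 TPM in P. maniculatus (difference 0.32, SE 0.06, adjusted p = 0.00131). Neuropilin-1 (Nrp1) did not pass (0.13).

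The Robo receptors split. Robo3, which lets commissural axons cross the midline during development, had 5.48, 7.63 and 9.47 TPM in P. polionotus, against 9.82, 11.5 and 12.9 TPM in P. maniculatus (difference -0.57, SE 0.11, adjusted p = 0.00134). Robo4, a receptor of endothelial cells, had 7.70, 9.10 and 9.81 TPM in P. polionotus, against 4.72, 6.91 and 9.10 TPM in P. maniculatus (difference 0.36, SE 0.13, adjusted p = 0.035), with overlapping ranges and a call lost in 11 of 23 alternatives. The 2 genes lie next to each other on chromosome 7 in the RefSeq gene order. Robo1 (0.01) and Robo2 (-0.01), the receptors of Slit repulsion in most neurons, did not pass.

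All 3 netrin receptors tested were called, 2 higher and 1 lower, where 52.4% of all genes were called. Dcc and Unc5d, under a mean of 1 TPM, were not tested. Unc5b, which also acts in vessels, had 6.84, 8.34 and 9.88 TPM in P. polionotus, against 5.68, 6.34 and 7.35 TPM in P. maniculatus (difference 0.35, SE 0.09, adjusted p = 0.00546). Unc5c was lower, with 1.27, 1.61 and 1.65 TPM in P. polionotus, against 2.23, 2.37 and 2.47 TPM in P. maniculatus (difference -0.39, SE 0.05, adjusted p = 7.86e-05). Unc5a passed at 0.18 (adjusted p = 0.0254), a call lost in 9 of 23 alternatives, among them quantile normalization (adjusted p = 0.153), median scaling (adjusted p = 0.152) and 4 that left out 1 library. Of the 25 calls, 18 held in each alternative that could be fitted.

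Markers of brain cells were counted in the same comparison, where 52.4% of all genes were called. Genes of oligodendrocyte precursors were called higher in P. polionotus for 10 of 12 markers (83.3%), with summed levels of 612 to 777 TPM in P. polionotus and 571 to 688 TPM in P. maniculatus. Microglial genes were higher for 5 and lower for 1 of 8, with sums of 345 to 402 TPM in P. polionotus, against 226 to 303 TPM in P. maniculatus, and striatal medium spiny neuron genes were higher for 6 of 10. Endothelial and pericyte genes were higher for 1 and lower for 4 of 9, with sums of 94.6 to 172 TPM in P. polionotus, against 150 to 212 TPM in P. maniculatus. The called share was between 50% and 58.3%, near that of all genes, for endothelial cells and pericytes, oligodendrocytes, astrocytes, excitatory neurons and the choroid plexus. Higher and lower calls were 3 and 4 of 12 for oligodendrocytes, 1 and 4 of 10 for astrocytes, 3 and 2 of 10 for excitatory neurons, 1 and 1 of 8 for interneurons, 2 and 0 of 9 for the cerebellum, 1 and 2 of 6 for the choroid plexus and 0 and 0 of 1 for blood. No listed marker with a row in the table was at 0 in all 3 libraries of a group, and the part of these cells in the guidance gene differences was not tested.

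After the burrowing trial 11 of 59 members passed, 8 higher and 3 lower in P. polionotus, where 34.1% of all genes did (20% higher and 14.1% lower). Within control animals 22 passed, 18 higher and 4 lower, where 39.6% of all genes did (26.8% higher and 12.9% lower). Members that passed in both included Efnb3 (log2 fold change 0.72 after burrowing and 0.80 in control animals) and Epha8 (0.78 after burrowing and 0.60 in control animals). Also among them were Sema4f (0.45 after burrowing and 0.38 in control animals) and Sema7a (-0.34 after burrowing and -0.36 in control animals). Unc5c (-0.36 after burrowing and -0.42 in control animals) was another, and the list is not complete. Robo3 passed after burrowing (-0.72, SE 0.15, adjusted p = 0.00462) and just missed in control animals (-0.41, SE 0.15, adjusted p = 0.0545). Epha5 (0.20), Plxna1 (0.17) and Sema3b (-0.56) passed in control animals but not in the mean of both trials. limma called 0 members for a species difference that itself differed between trials.

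The control comparison carried the hindbrain difference. Of 14 tested hindbrain and spinal cord markers, 0 were called lower and 1 higher after burrowing, with summed levels of 49.1 to 59.7 TPM in P. polionotus, against 36.9 to 52.2 TPM in P. maniculatus. In control animals 11 were called lower, with sums of 9.97 to 39.0 TPM in P. polionotus, against 45.7 to 56.8 TPM in P. maniculatus. The list mean of control animals was 0.63 to 1.72 in P. polionotus and 1.87 to 2.10 in P. maniculatus, on the log2(TPM + 1) scale. The covariate and the species could therefore not be fully told apart in control animals. With the hindbrain list as a covariate 4 members were called in control animals, all higher. For this and the next setting, the shares called over all genes are not given here. Without polionotus control replicates 2 and 3, a setting chosen after seeing the data, 8 were called. That setting leaves 1 polionotus control library, assumed to vary like the other groups. In the mean of both trials the same 2 settings gave 20 and 19 called members.

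The trial comparisons ask whether a bout of digging changed these genes. In P. maniculatus, limma called 0 of 59 members after burrowing, where 0.00696% of all genes were called, and 3 members had an unadjusted p under 0.05. Log2 differences of burrowing over control ran from -0.34 to 0.27, with a median SE of 0.09. Sema4b, a membrane semaphorin, had 9.04, 11.2 and 10.2 TPM after burrowing and 9.03, 7.78 and 7.97 TPM after control (0.27, SE 0.10). The burrowing values lay just above the control values. Plxna1, a co-receptor of class 3 semaphorins, had 31.8, 33.2 and 33.0 TPM after burrowing and 31.3, 28.5 and 27.6 TPM after control (0.16, SE 0.06). Efna4 and Sema3b had the smallest p on the other side. Efna4 had 2.82, 1.71 and 3.06 TPM after burrowing and 3.19, 3.08 and 3.95 TPM after control (-0.34, SE 0.20). Sema3b had 1.87, 3.47 and 4.82 TPM after burrowing and 3.63, 4.04 and 4.85 TPM after control (-0.29, SE 0.20). The limma adjusted p of each of these 4 genes was 1.

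In P. polionotus 0 members were called, where 0% of all genes were, and 0 had an unadjusted p under 0.05. Upward, Efna4 and Plxnc1, a receptor of Sema7a, had the smallest p. Efna4 had 2.48, 2.44 and 2.17 TPM after burrowing and 1.65, 1.004 and 2.66 TPM after control (0.32, SE 0.20). Plxnc1 had 5.601, 5.91 and 6.46 TPM after burrowing and 5.35, 5.38 and 5.91 TPM after control (0.09, SE 0.07). Both genes overlapped between the trials. Downward, Robo3 had 8.46, 5.96 and 5.48 TPM after burrowing and 6.80, 8.88 and 9.47 TPM after control (-0.31, SE 0.15), with overlapping values. Ephb3 followed, with 14.4, 10.7 and 7.80 TPM after burrowing and 13.03, 14.5 and 12.9 TPM after control (-0.31, SE 0.17). The adjusted p of these 4 was 0.998.

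Averaged over both species, 0 members were called, where 0.00696% of all genes were, and 0 had an unadjusted p under 0.05. Plxnc1 (0.10, SE 0.05) and Plxna2 (0.08, SE 0.04) stood highest by p on one side, Robo3 (-0.15, SE 0.11) and Ephb3 (-0.14, SE 0.12) on the other, all with an adjusted p of 0.9998. The responses of the species were then set against each other. Again 0 members were called, where 0% of all genes were, and 4 had an unadjusted p under 0.05, namely Efna4 (0.66, SE 0.29), Epha5 (-0.22, SE 0.08), Sema4b (-0.34, SE 0.14) and Plxna1 (-0.19, SE 0.08), each with an adjusted p of 0.992. Sema3b (0.45, SE 0.29) followed upward. A negative value means that the response in P. polionotus was below that in P. maniculatus.

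In the F1 hybrids, counts summed over both alleles were compared between trials with edgeR's quasi-likelihood test. It called 0 of 54 members, where 0% of all genes were called, and 0 members had an unadjusted p under 0.05. DESeq2 called 0 members as well. Robo3 had 20.6, 7.38 and 14.3 CPM of allele-assigned counts after burrowing and 20.2, 22.1 and 18.5 CPM after control (-0.54, SE 0.35). The burrowing animals spread widely and reached into the control range. Plxnd1 had 128.01, 89.1 and 110.3 CPM after burrowing and 116, 128.06 and 134 CPM after control (-0.22, SE 0.16). Unc5c had 43.6, 66.3 and 52.1 CPM after burrowing and 36.9, 39.7 and 57.2 CPM after control (0.26, SE 0.19). Plxnc1 followed on the same side (0.15, SE 0.12). All 4 had an adjusted p of 0.965, and the median SE over the members was 0.19.

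Within each F1 animal both alleles share the same cells, so that their ratio compares the parental copies of a gene. The polionotus share is the part of a gene's counts, in percent, that came from the polionotus copy. Of the 69 members, 15 had no row in this table and are not analysed here by allele, among them Ntn1, Sema6a, Sema3e, Efna3 and all 3 that lie on the X chromosome (Plxna3, Plxnb3 and Efnb1). Of the 54 members tested by edgeR's quasi-likelihood test with the animal as a block, 28 passed, 17 toward the polionotus and 11 toward the maniculatus allele. That is 51.9%, beside 55.7% of all 11928 genes (34.2% and 21.5% by direction). When the allele columns were scaled to each other by TMM, the median log2 ratio of all genes was -0.07, against 0.11 without it, and 12 members were called toward the polionotus and 18 toward the maniculatus allele. That scaling lowered every ratio by nearly the same amount. Of the 28 called members 23 passed again, and Efna5, Epha10, Plxna2, Robo4, Sema5b and Unc5c, none of them called before, turned from positive to negative ratios.

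Of 7 plexins tested, 6 were called toward the polionotus allele, and in these 6 the share was above 50% in every animal, as it was in 32.4% of all genes (in 20.6% it was below 50% in every animal). Plxna4, a receptor of class 3 and class 6 semaphorins, had polionotus shares of 75.9%, 78.0% and 77.5% after burrowing and 79.9%, 78.3% and 77.0% after control (log2 ratio 1.81, SE 0.05, adjusted p = 8.78e-07). Plxnb1 had 72.2%, 73.8% and 76.5% after burrowing and 73.1%, 72.3% and 76.9% after control (1.52, SE 0.06, adjusted p = 5.08e-06). The 6 animals were close to each other in both genes.

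Plxnd1, the receptor of Sema3e in vessels and neurons, had shares of 74.3%, 76.0% and 72.0% after burrowing and 74.3%, 75.2% and 70.7% after control (1.49, SE 0.06, adjusted p = 4.44e-06). Plxnc1 had 66.1%, 67.0% and 68.0% after burrowing and 68.8%, 70.0% and 66.2% after control (1.07, SE 0.04, adjusted p = 5.38e-06). Plxna1 (0.80, SE 0.19) and Plxnb2 (0.57, SE 0.07) completed the group. Plxna2 did not pass, with shares of 49.6% to 51.7% and a log2 ratio of 0.03. With TMM over the allele columns it was called toward the maniculatus allele (-0.15).

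Of 11 semaphorins of classes 4 to 7, 5 were called toward the maniculatus allele and 0 toward the polionotus allele, where 21.5% and 34.2% of all genes were. The other 6 did not pass, and 2 of them had ratios toward the polionotus allele. Sema7a had polionotus shares of 28.3%, 28.4% and 29.8% after burrowing and 30.6%, 30.1% and 47.3% after control (-1.08, SE 0.17, adjusted p = 0.00214). Control replicate 3 alone was near parity, on 14503 counts with a 95% Wilson interval of 46.5% to 48.1%, which covers counting error only, as do all intervals here. Sema4b had 31.0%, 53.0% and 37.3% after burrowing and 32.8%, 36.8% and 37.9% after control (-0.71, SE 0.17, adjusted p = 0.0133). Sema4a had 36.9%, 45.6% and 36.5% after burrowing and 34.2%, 38.3% and 37.5% after control (-0.70, SE 0.09, adjusted p = 8.58e-04). Sema5a was tight, with 41.9%, 43.1% and 41.3% after burrowing and 39.5%, 43.5% and 43.1% after control (-0.46, SE 0.04, adjusted p = 1.28e-04). Sema6c was called too (-0.28, SE 0.06).

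Among class 3 semaphorins, Sema3f had polionotus shares of 47.6%, 46.7% and 82.9% after burrowing and 81.5%, 74.8% and 78.9% after control (1.26, SE 0.43, adjusted p = 0.0467). In 2 burrowing animals the alleles were near balance and in the other 4 the polionotus allele dominated. The call was lost in 5 of 12 alternatives, with TMM over the allele columns and without burrowing replicate 3 or any 1 of the control animals (adjusted p 0.066 to 0.12). Sema3c passed at 0.70 (SE 0.11). Of the Slits, Slit3 was called, with shares of 86.0%, 85.4% and 49.1% after burrowing and 53.3%, 84.9% and 85.8% after control (1.77, SE 0.51, adjusted p = 0.0248). Slit3 too fell into animals near 50% and animals near 85%. Leaving out any 1 of the 4 animals near 85% ended its call (adjusted p 0.065 to 0.07).

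Both B ephrins tested passed, where 55.7% of all genes did. Efnb2, a ligand of arterial endothelium and neurons, had polionotus shares of 67.7%, 66.4% and 51.6% after burrowing and 70.1%, 71.3% and 65.8% after control (0.94, SE 0.16, adjusted p = 0.00336). Efnb3 had 56.2%, 56.3% and 55.7% after burrowing and 58.0%, 68.2% and 71.1% after control (0.65, SE 0.16, adjusted p = 0.0136). Every animal stood above 50% in both genes. No A ephrin passed, and Efna1 (log2 ratio 0.84, SE 0.39) ranged from 41.6% to 78.2%.

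The Eph receptors were mixed. Epha8 had polionotus shares of 59.5%, 56.9% and 79.3% after burrowing and 59.2%, 84.6% and 81.8% after control (1.34, SE 0.36, adjusted p = 0.0189), a call lost without burrowing replicate 3 (adjusted p = 0.056) or control replicate 3 (adjusted p = 0.053). Ephb6 had 23.2%, 52.7% and 22.9% after burrowing and 23.3%, 51.4% and 24.0% after control (-1.12, SE 0.36, adjusted p = 0.0365). For Ephb6, 4 animals showed about 23% and 1 animal of each trial was balanced. Its call was lost in 5 of 12 alternatives, with limma and without any 1 of the 4 animals near 23% (adjusted p 0.057 to 0.097). Epha6 was uniform, with 41.9%, 40.5% and 41.2% after burrowing and 42.5%, 41.0% and 38.5% after control (-0.53, SE 0.05, adjusted p = 1.41e-04). Epha5 (0.56), Epha2 (0.64) and Ephb3 (0.20) were also called toward the polionotus allele and Epha4 (-0.36) toward the maniculatus allele. The calls of Epha2 and Ephb3 were lost in 8 of 11 and 6 of 12 alternatives.

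Robo3 had polionotus shares of 30.5%, 39.7% and 30.0% after burrowing and 34.6%, 30.9% and 31.3% after control (-1.04, SE 0.10, adjusted p = 1.86e-04). Every animal lay well below 50%. Robo1 was also on the maniculatus side, with 40.0%, 39.7% and 43.6% after burrowing and 40.2%, 45.3% and 43.6% after control (-0.46, SE 0.06, adjusted p = 6.15e-04). Robo4, the neighbour of Robo3, stood at 48.9% to 54.4% and did not pass. Among receptors of netrins, Unc5b (0.27, SE 0.05) and Dcc (-0.17, SE 0.06) passed, Unc5b losing its call with TMM over the allele columns and without the animal block, Dcc in 7 of 12 alternatives. Nrp1 had the narrowest shares of the neuropilins, at 54.8% to 56.6% (0.35, SE 0.03, adjusted p = 8.98e-05). Of the 28 calls, 17 held in each alternative that could be fitted.

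**Figure D3:**
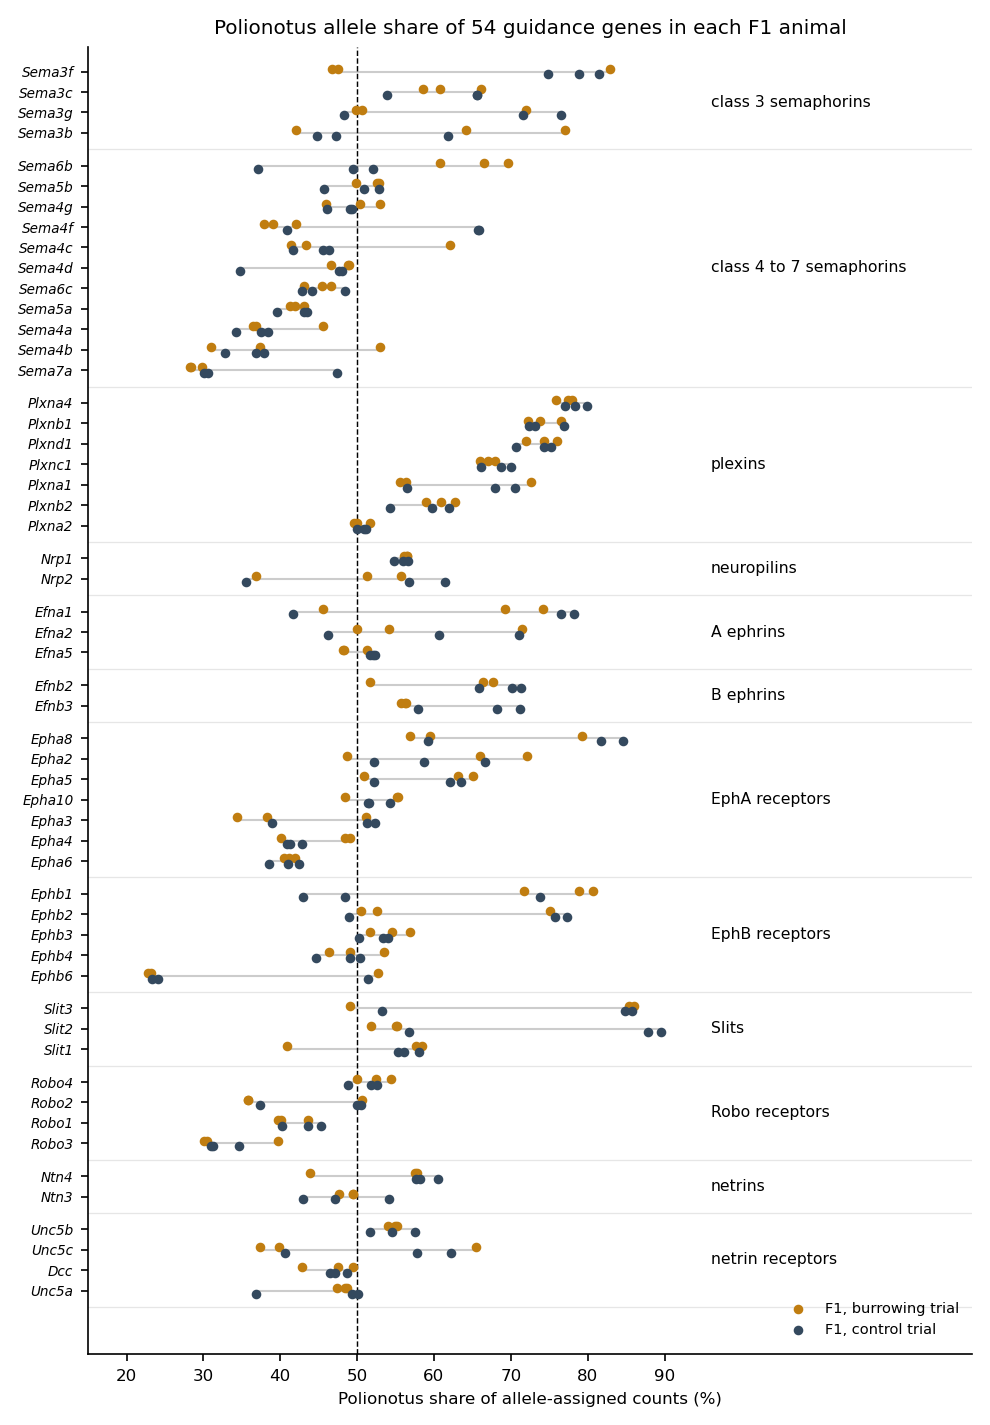
Polionotus share of allele-assigned counts (%) of 54 guidance genes in each of the 6 F1 animals, by family. Orange points are burrowing and dark points control animals, grey lines span the animals and the dashed line marks 50%. The plexins except Plxna2 sit right of the line, Sema7a, Sema4a and Robo3 left of it, and genes such as Slit2, Slit3 and Ephb6 fall into separate clusters of animals.

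The shares of several members differed between F1 animals by far more than counting error. Among 52 members with at least 100 counts per animal on average, 16 (30.8%) spanned over 20 percentage points, beside 24.4% of 10837 genes, and the median span was 13.7 points against 8.99. Of 48 with at least 100 counts in each animal, 13 (27.1%) did so, beside 22.8% of 9353 genes. Slit2 had polionotus shares of 55.1%, 51.9% and 55.1% after burrowing and 89.5%, 87.8% and 56.8% after control. The control animal at 89.5% rested on 703 counts (95% Wilson interval 87.0% to 91.5%) and the one at 56.8% on 4006 (55.3% to 58.3%). Sema4f had 42.1%, 39.1% and 37.9% after burrowing and 65.9%, 65.7% and 40.9% after control, so that the same control animals stood apart in both genes. The 2 genes lie on different chromosomes (10 and 3).

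Some neighbouring members had like shares over the animals, and others did not. Ephb2 and Epha8 lie 4 genes apart on chromosome 2 in the RefSeq gene order. Ephb2 had shares of 50.5%, 52.6% and 75.1% after burrowing and 48.9%, 77.3% and 75.8% after control, and the 3 animals above 70% were the 3 with the highest Epha8 shares. Robo2 and Epha3, 18 genes apart on chromosome 12, were likewise near 50% in the same 3 animals and between 34.4% and 38.9% in the other 3. Robo1, 3 genes from Robo2, had its 3 highest shares in those animals, over a narrower span. Epha6, 6 genes from Epha3, did not follow, with 38.5% to 41.2% in those 3 animals and 40.5% to 42.5% in the other 3. The 3 animals were the same on chromosomes 2 and 12, burrowing replicate 3 and control replicates 2 and 3, so that the grouping was shared by members that are no neighbours. Sema3b and Sema3f, 4 genes apart on chromosome 7, did not match: Sema3b was lowest in burrowing replicate 3 (42.1%), where Sema3f was highest (82.9%).

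No allele ratio of a member was shown to depend on the trial. edgeR's quasi-likelihood test called 0 of 54 members for the allele by trial term, where 0.226% of all genes were called, and 2 members had an unadjusted p under 0.05. DESeq2 and limma on the allele ratio also called 0 members. Sema6b had polionotus shares of 66.5%, 69.6% and 60.7% after burrowing and 52.0%, 49.4% and 37.1% after control (difference of log2 ratios 1.17, SE 0.28). The trials did not overlap, but the adjusted p was 1. Efnb3 followed (-0.61, SE 0.22), then Ephb1 (1.41, SE 0.56) and Slit2 (-1.88, SE 0.77). Without F1 control replicate 3, the deepest library, 2 members were called, Slit2 (-2.74, adjusted p = 0.00684) and Sema4f (-1.55, adjusted p = 0.025), in which the same pair of control animals stood apart. The share of all genes called without that animal is not given here.

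The species and allele differences were then set side by side for the 48 members tested in both tables. Of these, 20 were called between the species and 24 between the alleles, and 8 in both. Over all 9987 genes tested in both, 5199 were called between the species, 5536 between the alleles and 3200 in both. All 8 had the same sign in both, beside 82.7% of 3200 genes called in both over the whole series. Toward P. polionotus these were Efnb3, Epha8, Plxna4, Plxnb1 and Unc5b, and away from it Sema7a, Robo3 and Sema6c. Epha8 and Unc5b each lost the allele call in 2 of 12 alternatives. Sema6c lost the species call in 5 of 23 and the allele call in 1 of 12. Sema3c, under a mean of 1 TPM and so outside the 48, had opposite directions in the 2 tables. Efnb3 was alike in size on average, with a species log2 fold change of 0.76 and a log2 allele ratio of 0.65. That ratio averaged unlike animals, with polionotus shares of 68.2% and 71.1% in control replicates 2 and 3 and 55.7% to 58.0% in the others. Robo3 (-0.57 and -1.04), Sema7a (-0.35 and -1.08), Epha8 (0.69 and 1.34), Plxnb1 (0.28 and 1.52) and Plxna4 (0.43 and 1.81) had larger allele ratios. The tables were normalized separately, and the pseudocount shrinks species differences of low genes. Ratios of mean TPM, which have no pseudocount, were 0.66 for Robo3, 0.78 for Sema7a, 1.65 for Epha8, 1.22 for Plxnb1 and 1.51 for Plxna4. The polionotus over maniculatus allele folds of these genes, in the same order, were 0.49, 0.47, 2.53, 2.87 and 3.50. The difference between species and allele values was not tested.

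**Figure D4:**
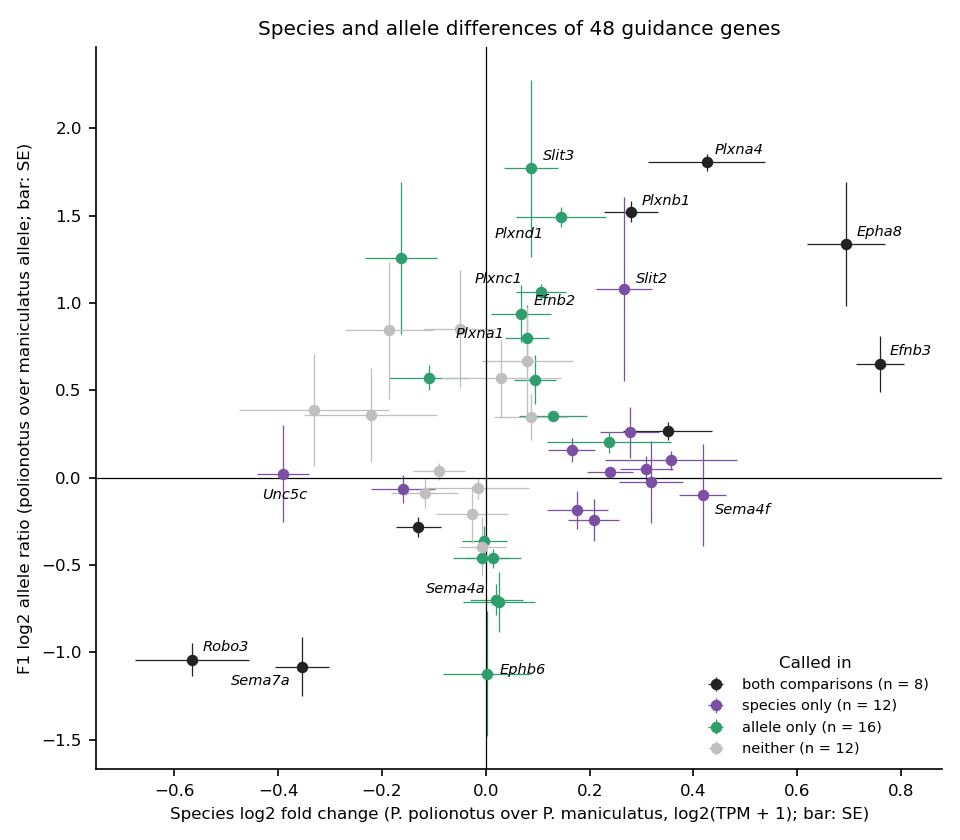
Species log2 fold change (x axis, log2(TPM + 1) scale) against the F1 log2 allele ratio (y axis) of 48 guidance genes, with SE bars and colours for the comparison in which a gene was called. The 8 genes called in both (black) lie in the upper right and lower left, whereas Slit3, Plxnd1 and Ephb6 lie near 0 on the x axis and far from 0 on the y axis.

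A further 16 of the 48 members were called by allele only, beside 2336 of 9987 genes. Plxnd1, with a log2 allele ratio of 1.49, stood at 24.3 ± 1.85 TPM in P. polionotus, against 22.0 ± 3.15 TPM in P. maniculatus (difference 0.15, SE 0.09, adjusted p = 0.184). Ephb6 had an allele ratio of -1.12 and a species difference of 0.00 (SE 0.08), and Sema4a had -0.70 and 0.02 (SE 0.05). Conversely 12 members were called between the species only, beside 1999 of 9987 genes. Among them were Sema4f (0.42 between the species, -0.10 by allele), Unc5c (-0.39 and 0.02), Plxna2 (0.24 and 0.03) and Nrp2 (0.32 and -0.03). The allele values of Sema4f, Unc5c and Nrp2 (SE 0.29, 0.28 and 0.24) averaged animals on both sides of 50%. Their polionotus shares ran from 37.9% to 65.9%, 37.3% to 65.4% and 35.5% to 61.4%. Plxna2 was near 50% in every animal, at 49.6% to 51.7% (SE 0.03). Another 12 members passed in neither, beside 2452 of 9987 genes. Across the 48 genes the 2 measures had a Pearson r of 0.38 and a Spearman rho of 0.32, beside 0.309 and 0.363 across 9987 genes. These are descriptions, since genes of the same libraries are not independent.

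Other genes of these pathways were counted in the same way. Of 64 tested genes of growth cone signalling downstream of guidance receptors, 22 were higher and 4 lower in P. polionotus (40.6% called, beside 52.4% of all genes). Mical1, which oxidizes actin below plexins, stood highest (0.84, SE 0.09), followed by the Rac activators Tiam1 (0.57) and Farp2 (0.41), the collapsin response mediator Dpysl2 (0.41) and the kinase Src (0.41). Cdk5, a kinase of semaphorin signalling, was lowest, with 83.8 ± 21.9 TPM in P. polionotus, against 136 ± 4.03 TPM in P. maniculatus (-0.73, SE 0.12), followed by Arhgef11 (-0.35), Limk1 (-0.20) and Abl2 (-0.19). By allele 15 of 57 were called toward the polionotus and 9 toward the maniculatus copy (42.1%, beside 55.7% of all genes), with Ngef (1.25) and Kalrn (-0.45) at the ends.

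Of 49 tested genes for other guidance cues and co-receptors, 18 were higher and 7 lower in P. polionotus, 51.0% beside 52.4% of all genes. Mag, a myelin protein that inhibits axon growth, stood at 143 ± 17.6 TPM in P. polionotus, against 99.9 ± 10.4 TPM in P. maniculatus (difference 0.51, SE 0.06). Kdr (0.47), Draxin (0.46) and the Wnt receptor Fzd3 (0.40) were also called higher, as was Nexn (0.42), which was on the list but encodes an actin filament-binding protein and is no known guidance cue. Rgmb, a ligand of the receptor neogenin, was lowest (-0.39, SE 0.05), then Wnt5a (-0.28), Flrt2 (-0.23), Gpc4 (-0.21) and Adgrl3 (-0.15). By allele 15 of 46 lay toward the polionotus and 8 toward the maniculatus copy (50%, beside 55.7% of all genes), with Vegfa (3.27, SE 0.21), Sdc3 (2.02) and Flrt1 (1.61) on one side and Neo1 (-0.86), Cntnap2 (-0.70) and Nrcam (-0.66) on the other.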

How the data were processed

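Whole-brain mRNA of 18 animals was measured from stranded poly(A) libraries, and reads were aligned with STAR 2.4.2a, per the submitters' processing notes. The sources used here give no genome build, annotation, TPM method or rule for assigning reads to an allele. The authors deposited TPM values for the 12 parental libraries and whole-number counts per allele for the 6 F1 animals (smallest count 2). TPM keep no depth. A row without a gene name, holding 0.789% to 2.48% of a library's TPM over all rows, was left out. Groups came from sample titles, and members were matched by symbol. All 69 members matched RefSeq symbols of assembly GCF_049852395.1, used for chromosomes and gene order only. The members and the 14 further gene lists were chosen with earlier results of these data known.

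Parental values were tested with limma 3.58.1 in R 4.3.3 on log2(TPM + 1), a scale that understates changes of low genes, for genes that averaged 1 TPM or more, with 1 mean per group and a shared spread. F1 counts were tested with the quasi-likelihood test of edgeR 4.0.16: summed over alleles with TMM between trials, and per allele with a block for the animal, both alleles' sum as library size and at least 20 counts per animal on average. P-values were adjusted over all genes, and a gene was called below 0.05. Fits were tested on simulated data. Members described in detail were up to 10 called members per direction with the largest species difference and at least 5 TPM. Added were the 8 called members per direction with the largest allele ratio and at least 100 counts per animal, and the most abundant of each family. In trial comparisons without calls, the 2 members per direction with the smallest p were taken. A few others were chosen after their values were seen. Species values are summaries over libraries: lowest, median and highest, mean and SD, or a median. Shares of the 8 per direction are given per animal. Trial comparisons give values per library or animal for some members and the effect alone for others. Alternatives were other pseudocounts, filters, scalings and tools (DESeq2 1.42.0), left-out libraries, the hindbrain list as a covariate, and fits with or without a replicate block. Wilson intervals are at 95%.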

Additional observations from a re-analysis of the deposited data

Results flagged for a closer look

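In 42 sets of 6 values (a member's libraries of one species, or its shares in the F1 animals), the highest or lowest value was checked for a gap to the rest beyond Dixon's 95% limit, which chance passes in about 1 set in 20. Among TPM values, Plxnb1 had 79.5 TPM in polionotus control replicate 2, against 63.6 to 68.2 in the other polionotus libraries. Maniculatus burrowing replicate 2 stood apart for Slit1 (8.03 TPM, others 6.37 to 6.95) and for Nrp2 (6.51 TPM, others 5.45 to 5.72). Among polionotus shares, F1 control replicate 3 stood apart for Sema7a (47.3%, others 28.3% to 30.6%). F1 burrowing replicate 2 stood apart for Sema4b (53.0%, others 31.0% to 37.9%) and Sema4a (45.6%, others 34.2% to 38.3%), and F1 burrowing replicate 3 for Efnb2 (51.6%, others 65.8% to 71.3%). In each of these 4 allele cases the animal apart was the one nearest to equal shares.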

How the results depend on the processing

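The counts in this section are of members only and are not set beside all genes at each setting. The counts of called members stayed within 1.5 times the reported ones, except in the following cases. In control animals the species count of 22 became 14 when genes needed a mean of 5 TPM (fewer members tested), 4 with the hindbrain list as a covariate and 8 without polionotus control replicates 2 and 3, a setting added after seeing the data; the causes of the last 2 were not tested. After burrowing, 11 became 7 with a mean of 5 TPM. Leaving out 1 library at a time gave 21 to 27 members for the species difference, 17 to 23 in control animals, 8 to 14 after burrowing, 22 to 29 for the allele difference, 0 to 2 for allele by trial and 0 in the trial comparisons. Replicate numbers showed no clear pairing: correlations of same-numbered samples ran from -0.57 to 0.25, and in no comparison were all above 0.1. They were all positive only between P. maniculatus burrowing and control, at 0.254, 0.126 and 0.0994. A replicate block gave 27 members for the species difference, 23 in control animals, 15 after burrowing and 0 in the trial comparisons and both interactions, while leaving the animal block out of the allele fit gave 23. Of the uncalled members 6 and 7 changed sign between the species under quantile normalization and median scaling, and 6 did by allele with TMM over the allele columns, where the called members were 12 toward the polionotus and 18 toward the maniculatus allele in place of 17 and 11. Depth limits 6 members with under 100 counts in at least 1 F1 animal (Efna1, Efna2, Epha2, Ephb4, Sema3b and Sema4c); the depth behind TPM is unknown.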

Other observations

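Members outside the parental test were read in the F1 table, where 6 with a mean under 1 TPM had counts. Of these, Sema3c and Epha2 were called toward the polionotus allele, Epha6 and Dcc toward the maniculatus allele, and Epha3 and Ephb1 did not pass. Sema3c ran opposite to the parental libraries, where it averaged 0.783 ± 0.0532 TPM in P. polionotus, against 0.946 ± 0.0432 TPM in P. maniculatus (SD, n = 6 each, no overlap), beside an F1 log2 allele ratio of 0.70 (SE 0.11, edgeR adjusted p = 0.00257). With no filter on low values, 31 of all 69 members were called between the species, 24 higher and 7 lower. The share over all genes at that setting is not given here, so the count is not read as a trait of the members.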
